A study of Rattus norvegicus with 18 samples.

Results

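The genes described here lie in the major histocompatibility region of the rat, at the start of chromosome 20, and their expression was measured in the gastrocnemius, a calf muscle, of young rats fed ad libitum (AL), aged rats fed AL and aged rats under caloric restriction (CR). A gene was a member when its first listed chromosome was 20, its smallest start lay between 1.5 and 6 Mb of the Rnor_6.0 genome build, its exons spanned at least 200 bases and its counts summed to at least 180 over the 18 libraries. The rule used position, length and total count, and no difference between groups. It gave 143 members of the 32883 identifiers in the count table, and the table held 14482 genes with the same length and count minimum. Of the 326 identifiers in the region, 27 had no count in any library, 140 were long enough but had too few counts, 15 were too short and had too few counts, and 1 had enough counts but was too short. At the edge of the count minimum, the nearest genes outside it had 179, 176 and 171 counts and the nearest members had 195, 218 and 230.

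All animals were male Brown Norway rats (substrain BN/SsNOlaHSD), fed AL up to an age of 2 months, then housed singly and assigned at random to a diet. Young rats fed AL were 6 months old, aged rats fed AL were 28 months old, and aged CR rats were 28 months old and had been given 55% of the AL intake from 2 months on. Each group held 6 rats with 1 library each, made from total RNA after removal of ribosomal RNA, and young CR rats were not analysed here. The rat number in the deposited column did not match the labels for 3 aged CR libraries, so these are called by their library numbers 8826, 8827 and 8828. Library numbers ran in separate blocks for the 3 groups, so an effect of handling and an effect of group cannot be told apart.

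The region carries the major histocompatibility complex, which is named RT1 in the rat. Its class I molecules present peptides from inside the cell to cytotoxic T cells, and its class II molecules, found mainly on professional antigen-presenting cells, present taken-up material to helper T cells. Between them lie the class III genes, which encode complement components, cytokines of the tumour necrosis factor family, inducible heat shock proteins and many proteins with no part in immunity. In the RefSeq annotation of the GRCr8 assembly, chromosome 20 carries 44 protein-coding genes with an RT1 symbol, of which 34 are class I and 10 class II. In the order of that annotation, Tap2, Psmb8, Tap1 and Psmb9, which transport or cut peptides for class I molecules, stand next to each other between RT1-DOb and RT1-DMb. The cytokine genes Lta, Tnf and Ltb are neighbours, as are the heat shock genes Hspa1l, Hspa1a and Hspa1b, the complement genes C2 and Cfb, and the class I genes RT1-A3, RT1-A2 and RT1-A1.

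The count table names genes by Ensembl identifier only, and that annotation as used here holds no Ensembl identifiers, so no match was possible. No member was therefore tied to a symbol, a class or a sequence, and the identity of the muscle could not be checked against its marker genes. Members are numbered 1 to 143 in the order of their starts, with their Rnor_6.0 position at first mention. The counting program did not use strand and counted no read that mapped to several places, which lowers the counts of near-identical copies, of which the class I family has many. For 45 of the 143 members, exon bases were shared with another identifier, for 22 of them on the same strand, and the reads of such pairs are uncertain.

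Library totals ran from 17335401 to 27432767 counts. The members together took between 0.291% and 0.422% of the counts in young rats (median 0.382%), between 0.343% and 0.754% in aged rats fed AL (median 0.418%) and between 0.334% and 0.545% in aged CR rats (median 0.390%). The highest share of each aged group belonged to a library that also stood apart over all genes. On the first principal component of log2 CPM, the value of rat 8 of the aged AL group was 108.9 and that of library 8828 of the aged CR group was 75.5. The other libraries ran from -45.8 in rat 3 to 8.25 in rat 7, and the lowest were young rats 3, 1 and 6. Rat 8 was the highest of its group in 70 of the 142 members tested (49.3%), against 34.0% of all genes tested, and library 8828 in 53 members (37.3%), against 26.4%. The counts of members called by edgeR in each comparison are therefore given with and without both libraries, and other counts are over all 18. Of the young rats, rat 1 was the highest in 45 members (31.7%, against 16.5% of all genes), and it was kept in both fits.

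The members differed widely in level. RPKM, the depth-scaled count per kilobase of exon, is used to compare genes, and its median over the libraries ran from 0.146 to 141 between members, with 35 members at 10 or more and 28 under 1. CPM, the count relative to the library total after scaling by the trimmed mean of M-values (TMM), is used to compare libraries. The members with the highest median RPKM were member 137 (chr20:5712203-5723902) at 141 RPKM, member 119 (chr20:5441876-5445553) at 132 RPKM, member 116 (chr20:5351605-5421098) at 79.7 RPKM, member 64 (chr20:4302344-4316715) at 60.8 RPKM and member 38 (chr20:3422461-3426371) at 59.4 RPKM. Only member 116 of these 5 was called in any comparison.

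Members 137, 119, 64 and 38 had overlapping groups in every comparison. Member 137 was at 79.6 to 103 CPM in young rats, 43.6 to 114 in aged rats fed AL, where rat 8 was the lowest, and 62.2 to 111 in aged CR rats. Member 119 was at 231 to 363, 278 to 385 and 297 to 425 CPM in the same order of groups. Member 64 varied the most of these within a group, from 96.3 to 394 CPM in young rats, 192 to 485 in aged rats fed AL and 174 to 744 in aged CR rats. Member 38 was at 92.0 to 145, 107 to 191 and 92.0 to 158 CPM. The log2 fold changes of these 4 members ranged from -0.27 to 0.78, and none passed the threshold.

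More members were higher than lower in aged rats fed AL. A member was called when the Benjamini-Hochberg adjusted p over all genes tested was at most 0.05 and the fold change at least 1.5, with edgeR's quasi-likelihood test on all 18 libraries. Of 142 members tested, 11 were higher in aged rats fed AL than in young rats fed AL (7.75%, against 1.88% of all genes tested) and 2 were lower (1.41%, against 1.52%). Without rat 8 and library 8828, 12 of 141 members were higher (8.51%, against 2.60%) and 4 lower (2.84%, against 2.23%), and 12 of the 13 calls were kept in the same direction. DESeq2's Wald test called 21 of 140 members in either direction (15%, against 5.81%), and 12 of the 13 were among its calls. Members 17 (chr20:3135791-3140610) and 18 are among the 21, and both passed the filter on low counts only through aged libraries. Of the 11 higher members, 2 and 18 passed the filter on low counts only through aged libraries, and with a minimum of 10 counts in every library, which both fail, 9 members were higher (7.69%, against 1.21%). In bulk tissue, fewer cells of a type and less RNA per cell cannot be told apart. Markers of blood and immune cells could not be identified without symbols, so their part in these differences was not tested.

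The 2 aged groups were also compared with one another and the aged CR group with the young group. Aged CR rats had 3 members called higher than young rats fed AL (2.11%, against 0.765% of all genes) and 2 called lower (1.41%, against 1.22%). Without rat 8 and library 8828 these counts were 11 of 141 (7.80%, against 1.48%) and 3 (2.13%, against 1.64%), and all 5 calls were kept. Member 18 is among the 3, and members 2 and 18 among the 11. With a minimum of 10 counts in every library, which both fail, 4 members were higher (3.42%, against 0.898%). Under CR, 1 member was called higher than in aged rats fed AL (0.704%, against 0.833%) and 0 lower (0%, against 0.546%). DESeq2 also called 0 members lower here, while 21 members (14.8%, against 15.3% of all genes) had an unadjusted p under 0.05 in either direction with edgeR. The same held for 49 members (34.5%, against 22.3%) between aged and young rats under AL feeding and for 30 (21.1%, against 19.3%) between aged CR and young rats. Members 2, 17 and 18 are among the 49, and members 2 and 18 among the 30. All of these passed the filter on low counts only through aged libraries. Between the aged groups without rat 8 and library 8828, 4 of 141 were higher under CR (2.84%, against 1.79%) and 5 lower (3.55%, against 1.47%). DESeq2's test called 16 of 140 members (11.4%, against 4.16%) between aged CR and young rats and 3 of 140 (2.14%, against 2.90%) between the aged groups, in either direction. Member 18 is also among the 16. The young rats serve in both comparisons with age, and the aged rats fed AL in a pair of comparisons.

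**Figure D1:**
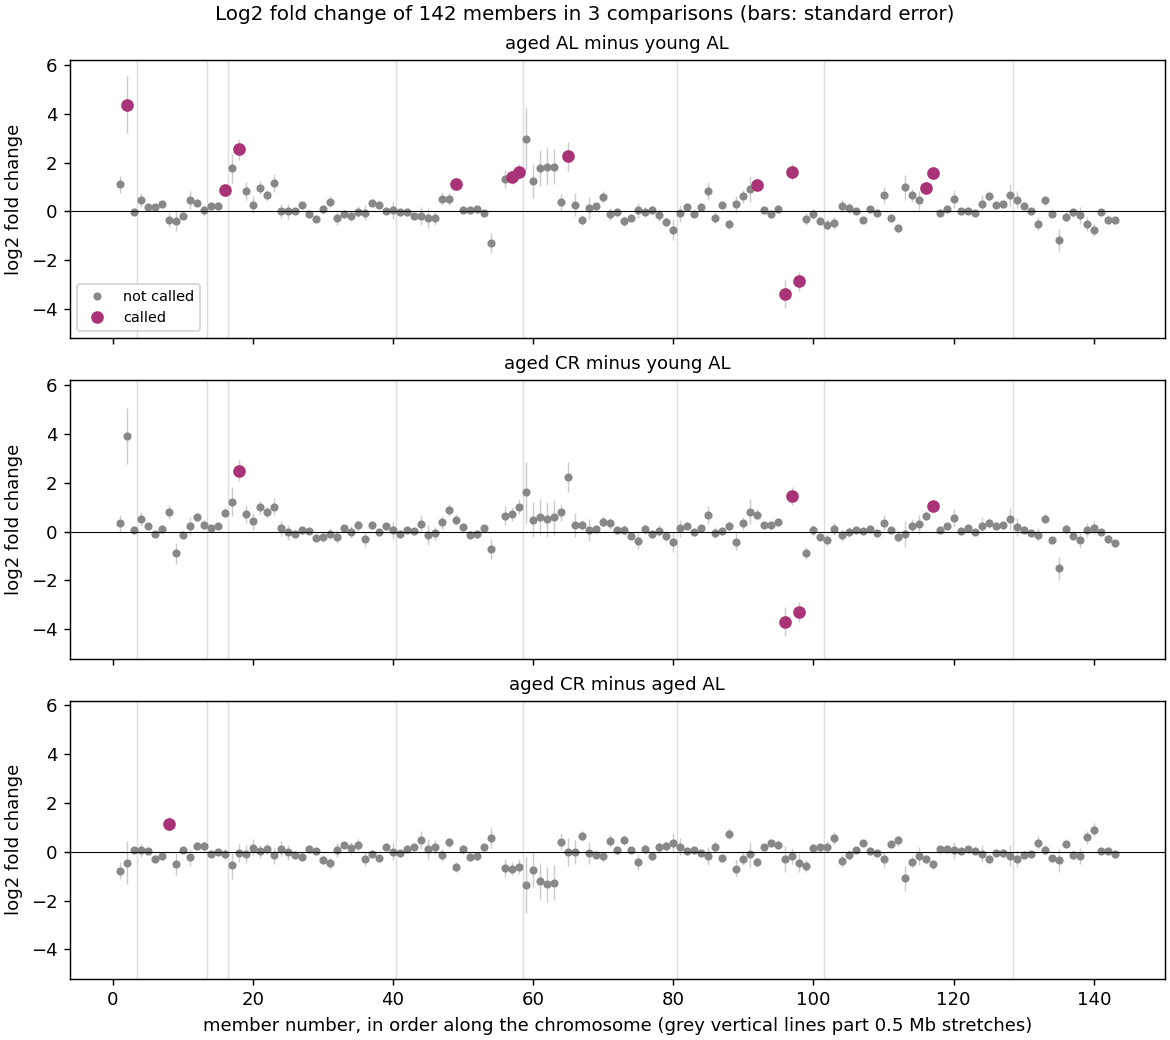
Log2 fold change of the 142 members tested, numbered in order along the chromosome, in the comparisons of aged AL with young AL rats, aged CR with young AL rats and aged CR with aged AL rats. Points are edgeR estimates with standard errors derived from the F of the test, and the called members (13, 5 and 1) are drawn larger and coloured.

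The single libraries were also compared without a model. The groups did not overlap for 13 members between aged and young rats fed AL (9.15%, against 2.40% of all genes tested), 11 with the aged rats higher and 2 with them lower, and 12 of the 13 were also called. For aged CR against young rats they did not overlap for 11 members (7.75%, against 3.26%), 8 higher and 3 lower, of which 5 were called. Member 18, which passed the filter on low counts only through aged libraries, is among the higher members in both comparisons. The aged groups did not overlap for 1 member (0.704%, against 2.06%), member 6 (chr20:2088533-2092436). It was at 10.5 to 11.3 CPM in aged rats fed AL and at 7.51 to 10.1 CPM in aged CR rats, a log2 difference of -0.28 (SE 0.11) with an adjusted p of 0.205 by edgeR.

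Changes went both ways, so the signed medians were small. The median log2 fold change over the members was 0.07 in aged against young rats fed AL (0.01 over all genes), 0.13 between aged CR and young rats (0.00 over all genes) and -0.02 between the aged groups (-0.02 over all genes). The log2 fold change was above 0 in 83, 96 and 68 of the 142 members in these comparisons (58.5%, 67.6% and 47.9%), against 51.0%, 50.7% and 46.9% of all genes. Regardless of sign, the median log2 change of the members was 0.285, 0.241 and 0.195, against 0.214, 0.200 and 0.181 over all genes. Scaling by the upper quartile moved the median of all genes by 0.06, 0.06 and 0.00 and these counts to 97, 104 and 69. Of the 143 members, 129 were called in no comparison, the untested member included. The matching share of all genes was not computed, so this count is not read as a trait of the members. In the next 4.5 Mb of the chromosome, 49 genes were tested, and 3 (6.12%), 2 (4.08%) and 2 (4.08%) were called in either direction in the 3 comparisons. For all genes the shares called higher and lower were 1.88% and 1.52%, 0.765% and 1.22%, and 0.833% and 0.546%. Those of the members were 7.75% and 1.41%, 2.11% and 1.41%, and 0.704% and 0%. In the last 2 comparisons the share of the neighbours, from 2 genes each, was above that of the members.

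Of the 14 members called in any comparison, 3 were higher in both aged groups than in young rats (2.11% of the members tested, against 0.178% of all genes), members 18, 97 and 117. Member 18 passed the filter only through aged libraries, so the count without it is 2. Members 96 and 98 were the 2 that were lower in both (1.41%, against 0.416%). Without rat 8 and library 8828, 6 were higher in both (4.26%, against 0.404%), of which members 2 and 18 passed the filter only through aged libraries, and 2 were lower (1.42%, against 0.499%). Both comparisons use the same young rats, so calls in both are not independent.

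**Figure D2:**
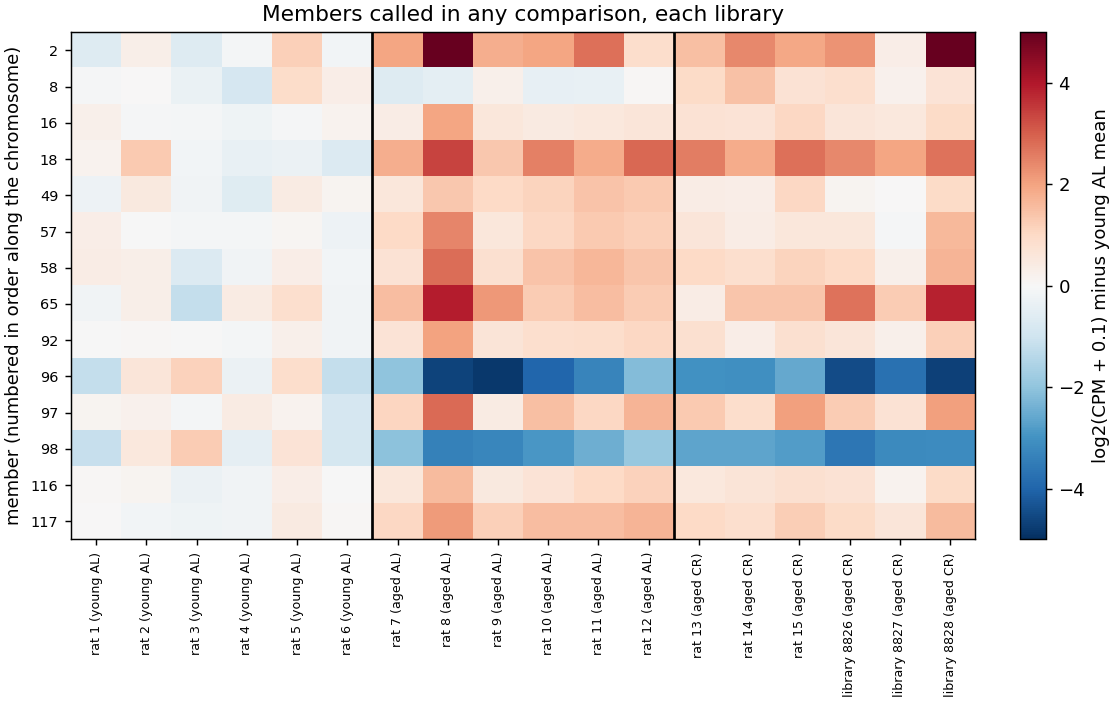
Each of the 14 called members (rows) in each of the 18 libraries (columns), as log2(CPM + 0.1) minus the mean of the young rats. Members 96 and 98 are lower in all 12 aged libraries than in any young one, and rat 8 and library 8828 have the darkest cells of several higher members.

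The member with the lowest adjusted p among those higher with age was member 117 (ENSRNOG00000030712, chr20:5374985-5378539, plus strand), the seventh in order of median RPKM at 42.9. In young rats it was at 36.9, 33.4, 31.6, 32.4, 50.3 and 37.8 CPM (mean 37.1 ± 6.91 SD, n = 6). In aged rats fed AL it was at 75.6, 161, 82.6, 106, 108 and 120 CPM (mean 109 ± 30.6 SD, n = 6), and in aged CR rats at 73.1, 65.9, 85.5, 70.4, 55.4 and 109 CPM (mean 76.6 ± 18.8 SD, n = 6). Every aged library was above every young one. The level was 2.94-fold higher in aged rats fed AL than in young rats (log2 fold change 1.55, SE 0.19, adjusted p = 0.000408, edgeR) and 2.07-fold higher in aged CR rats (1.05, SE 0.18, adjusted p = 0.00413). The difference of -0.51 (SE 0.18) between the aged groups, lower under CR, did not pass the threshold (adjusted p = 0.171, and 0.069 without rat 8 and library 8828).

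Member 116, on the same strand, spans member 117 and shares exon bases with it, so the 2 are not independent. It was at 120 to 184 CPM in young rats (median 150), 209.5 to 445 in aged rats fed AL (median 265) and 165 to 288 in aged CR rats (median 238). The young and aged AL groups did not overlap, and the aged CR group overlapped both. Its log2 fold change was 0.95 in aged rats fed AL (SE 0.18, adjusted p = 0.00699, edgeR) and 0.65 in aged CR rats, where it did not pass (SE 0.18, adjusted p = 0.0580) although DESeq2 called it (adjusted p = 0.0129).

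Member 18 (ENSRNOG00000029386, chr20:3146856-3150852, plus strand) had the largest log2 fold change among the members called higher in both aged groups, from a low level of 0.746 RPKM. Its raw counts were 8, 22, 5, 5, 6 and 4 in young rats, 28, 115, 20, 42, 36 and 66 in aged rats fed AL, and 51, 33, 57, 45, 34 and 85 in aged CR rats. On the CPM scale it was at 0.391 ± 0.305, 2.31 ± 1.30 and 2.23 ± 0.567 (mean ± SD, n = 6 each). Rat 2 was the highest young rat at 0.995 CPM and the aged groups overlapped. Only rat 2 of the young rats reached the filter's 0.464 CPM, against all 12 aged libraries, so the member entered the test through the groups where it was high and had to differ. As a description, it was 5.84-fold higher in aged rats fed AL (log2 2.54, SE 0.43, adjusted p = 0.00376, edgeR) and 5.63-fold higher in aged CR rats (log2 2.49, SE 0.43, adjusted p = 0.00326). The difference between the aged groups was -0.05 (SE 0.39).

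Member 97 (chr20:4892702-4896991, minus strand) was the other member called higher in both. It was at 1.30 to 3.20 CPM in young rats, 3.24 to 17.4 in aged rats fed AL and 4.04 to 10.3 in aged CR rats, so that both aged groups lay above the young one. The log2 fold change was 1.63 (SE 0.36, adjusted p = 0.0163, edgeR) under AL and 1.46 (SE 0.36, adjusted p = 0.0341) under CR, where leaving out 1 library ended the call in 8 cases. Member 92 (chr20:4694472-4896970, same strand) shares exon bases with it. Member 92 was at 9.43 to 12.5 CPM in young rats, 16.4 to 42.8 in aged rats fed AL and 12.8 to 24.5 in aged CR rats. No aged library of it was as low as any young one, and it was called under AL feeding (log2 1.10, SE 0.21, adjusted p = 0.00800) but not under CR (0.70, SE 0.21, adjusted p = 0.0811), where DESeq2 did call it (adjusted p = 0.0326).

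**Figure D3:**
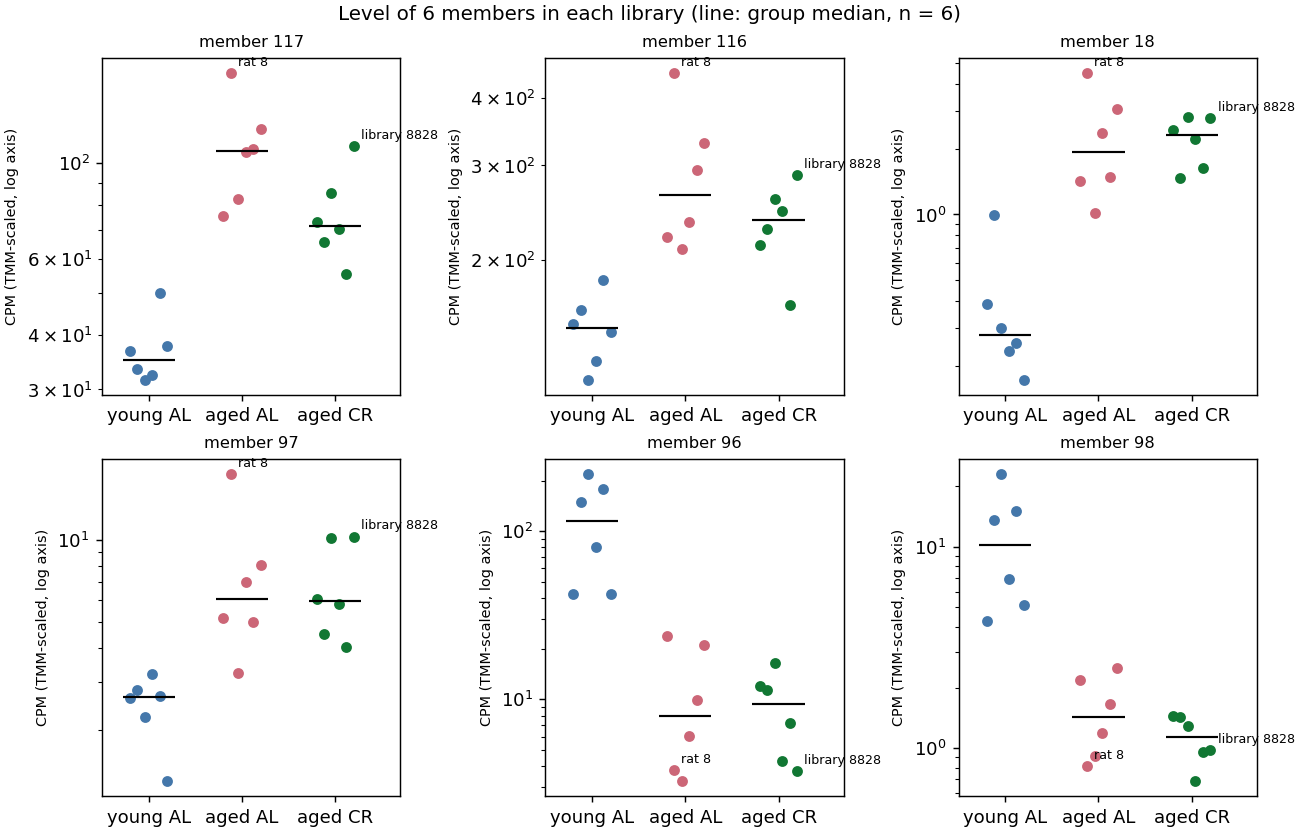
CPM on a log axis of members 117, 116, 18, 97, 96 and 98 in each library, with a line at the median of each group of 6, and rat 8 and library 8828 named. For members 117, 18 and 97 all aged libraries lie above all young ones, and for members 96 and 98 all lie below.

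Both members that were lower with age lie within 0.1 Mb of each other on the minus strand. Member 96 (ENSRNOG00000050647, chr20:4877324-4879779) was at 42.2, 149, 217, 79.99, 179 and 42.1 CPM in young rats (mean 118 ± 74.1 SD, n = 6). It was at 24.0, 3.82, 3.29, 6.05, 9.86 and 21.2 CPM in aged rats fed AL (mean 11.4 ± 9.03) and at 11.9, 11.4, 16.5, 4.29, 7.27 and 3.73 CPM in aged CR rats (mean 9.20 ± 4.98). The lowest young rat was above the highest aged library of either diet. The level was 10.4-fold lower in aged rats fed AL (log2 -3.38, SE 0.57, adjusted p = 0.00376, edgeR) and 12.9-fold lower in aged CR rats (log2 -3.69, SE 0.58, adjusted p = 0.00198).

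Member 98 (ENSRNOG00000061483, chr20:4956541-4958492) was at 4.26, 13.6, 22.9, 6.91, 15.1 and 5.15 CPM in young rats. In aged rats fed AL it was at 0.818 to 2.50 CPM (median 1.43) and in aged CR rats at 0.690 to 1.44 CPM (median 1.13), again below every young rat. It was 7.30-fold lower in aged rats fed AL (log2 -2.87, SE 0.40, adjusted p = 0.00104, edgeR) and 9.94-fold lower in aged CR rats (log2 -3.31, SE 0.41, adjusted p = 0.000255). The young rats stood in the same order for both members, apart from rats 1 and 6 at the low end. The CPM of member 96 was 8.18 to 11.8 times that of member 98 in young rats (median 10.5), 3.61 to 11.0 times in aged rats fed AL and 3.80 to 12.8 times in aged CR rats. For neither member did the aged groups differ past the threshold (log2 -0.31, SE 0.54, and -0.45, SE 0.40).

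Members 57 and 58 are neighbours on the plus strand and were higher in aged rats fed AL. Member 57 (chr20:3979035-3989669) was at 7.96 to 12.3 CPM in young rats (median 9.33), 14.3 to 52.9 in aged rats fed AL (median 21.0) and 9.24 to 29.4 in aged CR rats (median 14.3). Rat 8 gave the 52.9 CPM and the next aged rat fed AL was at 24.0 CPM, while library 8828 gave the 29.4 CPM and the next was at 14.8 CPM. Its log2 fold change under AL was 1.39 (SE 0.29, adjusted p = 0.0117, edgeR) and 1.04 (SE 0.15, adjusted p = 0.000636) without both libraries. Under CR it was lower than under AL by -0.69 (SE 0.28, adjusted p = 0.244), and by -0.61 (SE 0.15, adjusted p = 0.0302) without both libraries, where it was called.

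Member 58 (chr20:3990613-3993769) was at 2.28 to 4.80 CPM in young rats, 6.21 to 26.4 in aged rats fed AL and 4.48 to 12.4 in aged CR rats. The aged AL group lay above the young one, and the aged CR group overlapped both. The log2 fold change was 1.63 under AL (SE 0.32, adjusted p = 0.00920, edgeR) and 1.02 under CR (SE 0.32, adjusted p = 0.0909). Under CR it was called without rat 8 and library 8828 (0.84, SE 0.22, adjusted p = 0.0336) and by DESeq2 with all libraries (adjusted p = 0.0308). The gene before them, member 56 (chr20:3973420-3978845, minus strand), had a log2 fold change of 1.32 under AL (SE 0.38, adjusted p = 0.0535), and was called at 0.90 (SE 0.25, adjusted p = 0.0342) without both libraries and by DESeq2 with all of them (adjusted p = 0.00985).

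Member 49 (chr20:3791629-3796275, minus strand) was higher in aged rats fed AL and was not called under CR. It was at 4.32 to 9.23 CPM in young rats (median 6.47), 9.61 to 17.9 in aged rats fed AL (median 15.3) and 6.59 to 13.7 in aged CR rats (median 8.38). The young and aged AL groups did not overlap. The log2 fold change was 1.11 under AL (SE 0.22, adjusted p = 0.00869, edgeR) and 0.49 under CR (SE 0.22, adjusted p = 0.228), and the difference of -0.63 between the aged groups (SE 0.22) had an adjusted p of 0.147. Member 48 (chr20:3791407-3794027) shares exon bases with it on the same strand and had other values, 0.50 under AL and 0.89 under CR (adjusted p = 0.218 and 0.0503). It was called under CR without both libraries (0.93, adjusted p = 0.0228) and by DESeq2 with all of them (adjusted p = 0.00998).

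The remaining members called higher in aged rats fed AL rested more on single libraries. Member 65 (chr20:4302347-4508214, minus strand) has 15 other members inside its span and shares exon bases with member 64. It was at 0.839 to 3.73 CPM in young rats and at 5.03 to 9.56 CPM in 5 aged rats fed AL, with rat 8 at 32.4 CPM. In aged CR rats it was at 2.64 to 13.9 CPM in 5 libraries, with library 8828 at 31.0 CPM. The log2 fold change was 2.25 under AL (SE 0.60, adjusted p = 0.0406, edgeR) and 2.24 under CR (SE 0.60, adjusted p = 0.0526), and without rat 8 and library 8828 the values were 1.503 and 1.53, both called. DESeq2 called it under CR with all libraries (adjusted p = 0.00259). The call under AL was lost in 8 of 27 alternatives, in each of which 1 library was left out.

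Member 16 (chr20:2704148-2707120, minus strand) was at 5.64 to 7.85 CPM in young rats, 8.55 to 9.97 CPM in 5 aged rats fed AL with rat 8 at 25.9 CPM, and 9.63 to 13.7 CPM in aged CR rats. Both aged groups lay above the young one. Its log2 fold change of 0.87 under AL (SE 0.23, adjusted p = 0.0397, edgeR) fell to 0.50 without rat 8 and library 8828, under the minimum of 1.5-fold, although the adjusted p was then 0.0150. The call was lost in 12 of 27 alternatives. Under CR the log2 fold change was 0.77 (SE 0.23, adjusted p = 0.0800) with all libraries and 0.73 (SE 0.12, adjusted p = 0.00189) without both, and DESeq2 called it with all libraries (adjusted p = 0.0296).

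Member 2 (chr20:1876173-1897814, minus strand) was close to absent in young rats, with 0, 2, 0, 1, 6 and 1 counts. It had 10, 193, 9, 9, 23 and 4 counts in aged rats fed AL and 7, 16, 10, 13, 2 and 155 in aged CR rats, where the 193 and 155 belong to rat 8 and library 8828. The young group overlapped both aged groups. The member passed the filter on low counts only through the aged libraries in which it was high, so it had to differ, and its place among the 11 members called higher supports nothing. The fitted log2 fold change under AL, 4.38 (SE 1.15, adjusted p = 0.0374, edgeR), was 2.68 (SE 0.66, adjusted p = 0.0194) without both libraries. With so few counts in young rats its size depends on the prior count of the fit, and leaving out 1 of rats 1, 3, 4, 6 or 8 ended the call.

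A single member was called between the diets with all libraries. Member 8 (chr20:2098375-2103864, minus strand) was at 1.12 to 2.13 CPM in aged rats fed AL (median 1.34) and at 2.07 to 5.16 CPM in aged CR rats (median 3.14), so the lowest aged CR library was just under the highest aged rat fed AL. Young rats were at 0.940 to 3.43 CPM (median 1.75), a range that covered all aged rats fed AL. The log2 difference was 1.15 (SE 0.29, adjusted p = 0.0446, edgeR), higher under CR, and 1.14 (SE 0.32, adjusted p = 0.0454) without rat 8 and library 8828. The call was lost in 12 of 27 alternatives, with adjusted p of up to 0.108. Member 7 (chr20:2094931-2098433), on the opposite strand, shares exon bases with member 8 and was at 18.9 to 32.5 CPM in aged rats fed AL and 16.9 to 24.5 CPM in aged CR rats, and was not called.

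Without rat 8 and library 8828 the aged groups differed in 9 members. Under CR 4 were higher (2.84% of members, against 1.79% of all genes) and 5 lower (3.55%, against 1.47%). Those lower under CR were members 1 (chr20:1814661-1818800, log2 -0.74), 57, 61, 62 and 63, and those higher under CR were members 8, 67 (chr20:4329811-4353785, 0.91), 88 (chr20:4610995-4615247, 0.93) and 140 (chr20:5740792-5741634, 0.91). Member 67, for example, was at 11.6 to 29.9 CPM in all 6 aged rats fed AL and 19.7 to 33.2 CPM in all 6 aged CR libraries, with young rats at 16.9 to 34.9 CPM. Between aged and young rats under AL feeding, this fit added calls for members 1 (0.68) and 56, which were higher with age. Members 54 (chr20:3830164-3859018, -1.12) and 112 (chr20:5139882-5155293, -0.75) were added as lower. In aged CR rats against young rats, calls were added for members 2, 16, 48, 58 and 65, for members 21 (chr20:3176107-3179818, 0.88), 22 (chr20:3189473-3197457, 0.72) and 23 (chr20:3226313-3233694, 0.81), close to each other on the plus strand, and for member 99 (chr20:4959294-4964963, -0.82), which starts just after member 98.

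**Figure D4:**
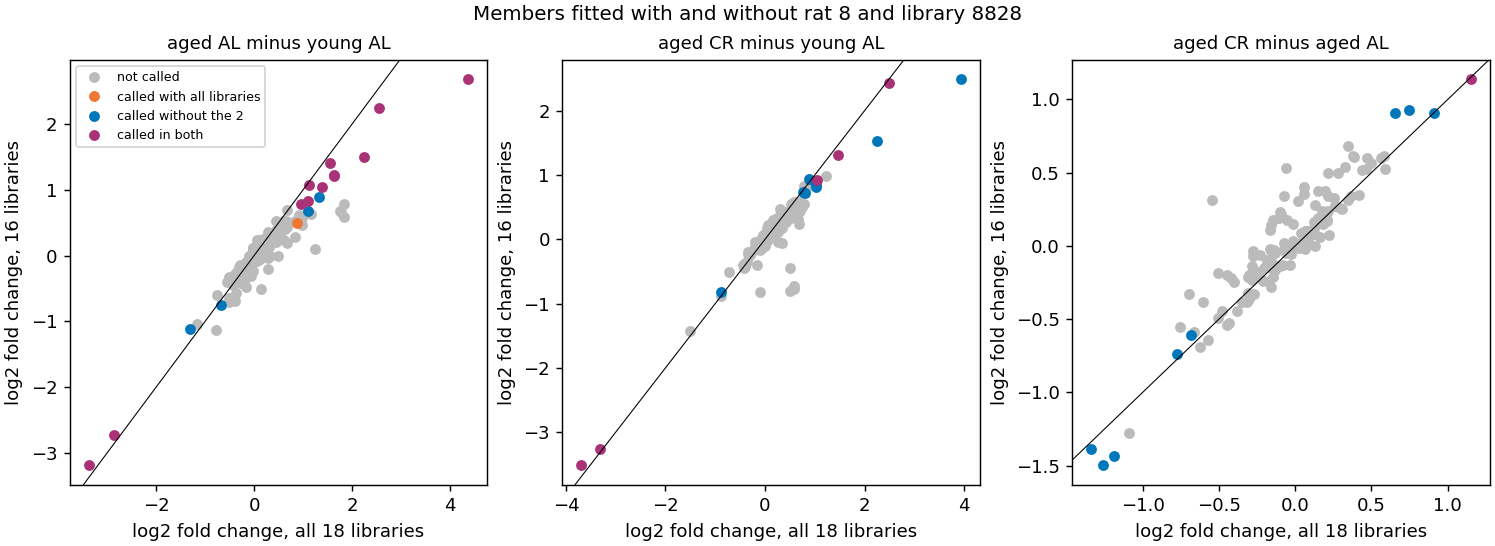
Log2 fold change of each member fitted with all 18 libraries (x axis) and without rat 8 and library 8828 (y axis), for the 3 comparisons, with the line of equality. Colours mark members called in both fits, in one of them or in neither, and 12 of 13, 5 of 5 and 1 of 1 calls of the full fit are kept.

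Members 59 to 63 (from chr20:4020317 to 4132616) are consecutive and were chosen for description after their values were seen, so no test of their sum is given. Their summed level was 26.2 to 85.9 CPM in young rats (median 65.7). In aged rats fed AL it was 58.7 to 165 CPM in 5 rats and 795 CPM in rat 8, which is 8.98 times the median of the other 5. In aged CR rats it was 22.0 to 64.0 CPM in 5 libraries and 361 CPM in library 8828, which is 11.6 times the median of the others. These 5 libraries were at 29.4, 64.0, 41.7, 31.1 and 22.0 CPM. Library 8827 at 22.0 CPM lay below every young rat and 3 others below all but rat 3.

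Members 61 (chr20:4066132-4070721), 62 (chr20:4087618-4097190) and 63 (chr20:4127644-4132616) carried most of this sum. In rat 8 they were at 241, 210 and 262 CPM, and in library 8828 at 115, 84.3 and 120 CPM. With all libraries the log2 fold changes in aged rats fed AL were 1.78, 1.84 and 1.84, with adjusted p of 0.169, 0.157 and 0.143 (edgeR). Between the diets they were -1.19, -1.34 and -1.26, and none passed. Without rat 8 and library 8828 the differences between the diets were -1.44 (SE 0.35), -1.39 (SE 0.31) and -1.50 (SE 0.32), lower under CR, with adjusted p of 0.0247, 0.0163 and 0.0141, and none was called against young rats. Against young rats this fit gave 0.66, 0.58 and 0.78 in aged rats fed AL, and -0.77, -0.81 and -0.72 in aged CR rats (adjusted p of 0.198, 0.126 and 0.190), where the values with all libraries were 0.59, 0.50 and 0.58. Members 59 and 60 were called in neither fit, and member 59 was not tested without both libraries.

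**Figure D5:**
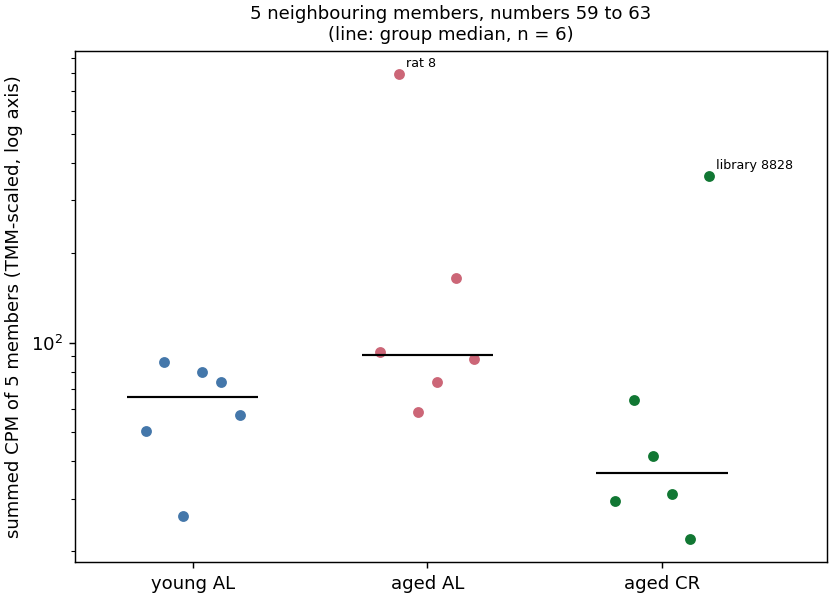
Summed CPM of members 59 to 63 on a log axis in each library, with a line at the median of each group of 6. Rat 8 at 795 CPM and library 8828 at 361 CPM lie above all the others, which reach 165 CPM.

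The 1 member that was not tested, member 55 (chr20:3889370-3892449), was concentrated in the same libraries. It had 368 counts in rat 8 and 217 in library 8828, and between 0 and 8 counts in each of the other 16 libraries, which is why it did not pass the filter on low counts. Without these 2 libraries it would have fallen short of the minimum of 180 counts. It is a member only through them, so its concentration there was largely fixed by the rule. Members 2, 17 and 59, among others, would also fall short without them.

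By position, between aged and young rats fed AL, against 1.88% of all genes, the stretch from 3.5 to 4 Mb had 3 of 17 tested members called higher, and those from 4.5 to 5 Mb and from 5 to 5.5 Mb had 2 of 21 and 2 of 27. The stretches from 1.5 to 2, 2.5 to 3, 3 to 3.5 and 4 to 4.5 Mb had 1 each, of 3, 3, 24 and 22. The calls from 1.5 to 2 and from 3 to 3.5 Mb are members 2 and 18, which passed the filter only through aged libraries. Those from 2 to 2.5 Mb and from 5.5 to 6 Mb had 0 of 10 and 0 of 15. With so few members in a stretch, no order of the stretches is read from these counts. Both lower members lie between 4.5 and 5 Mb. The summed level of the 27 members from 5 to 5.5 Mb was 1055 to 1271 CPM in young rats, 1196 to 1608 in aged rats fed AL and 1299 to 1501 in aged CR rats, where no aged CR library was as low as any young one. The summed level of the 21 members from 4.5 to 5 Mb was 480 to 630 CPM in young rats, 412 to 474 in aged rats fed AL and 446 to 475 in aged CR rats, below every young rat in both. Without member 96, the sum of the other 20 was 398 to 479 CPM in young rats, 406 to 470 in aged rats fed AL and 440 to 471 in aged CR rats, so the separation rested on member 96. The stretch from 4 to 4.5 Mb was the most uneven between libraries, with 540 to 1700 CPM in aged rats fed AL, where rat 8 was the highest and the next was at 912 CPM. From 5.5 to 6 Mb, the sum was 428 to 553 CPM in young rats, 298 to 478 in aged rats fed AL and 344 to 470 in aged CR rats, and rat 8 and library 8828 had the lowest value of their groups.

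The spread between libraries was widest in aged rats fed AL, where rat 8 added to it. The median SD of the members on the log2 CPM scale was 0.289 in young rats, 0.429 in aged rats fed AL and 0.308 in aged CR rats, against 0.283, 0.368 and 0.265 over all genes tested. Without rat 8 the value in aged rats fed AL was 0.281 (0.260 over all genes), and without library 8828 that in aged CR rats was 0.251 (0.222 over all genes). The number of members with an SD over 1 fell from 11 to 1 without rat 8 and from 11 to 3 without library 8828.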

How the data were processed

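Gastrocnemius RNA was measured by strand-specific paired-end sequencing. Per the labels and the study's methods, the authors trimmed reads with cutadapt 1.2.1 and aligned them with STAR 2.3.0e to Rnor_6.0. The deposited values are raw counts per Ensembl release 96 gene, made per the file headers with featureCounts 1.6.4 on read pairs, without the strand and multi-mapping options. Here, edgeR 4.0.16 (R 4.3.3) fitted its quasi-likelihood model to all 18 libraries, with TMM scaling and filterByExpr, leaving 14646 genes. p-values were adjusted by Benjamini-Hochberg over these genes. The log2 CPM values behind the principal component and the SD used a prior count of 2. The log2 fold changes used the default prior count of edgeR's fit. RPKM used the deposited exon length. The model was tested on simulated counts with 200 genes changed 4-fold in the aged AL group and 2-fold in the aged CR group. No simulated library was made to stand apart as rat 8 and library 8828 do.

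The members and lists were chosen with earlier results of these data known. Named members are those called in any comparison and the 5 highest by median RPKM, and any other member named was chosen after its values were seen. Planned lists of gene symbols, including markers of muscle, liver and immune cells, were not used, because no identifier was paired with a symbol. Alternatives were RLE and upper-quartile scaling, 2 other filters, DESeq2 1.42.0, robust shrinkage, fits of the compared groups only and leaving out libraries.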

Additional observations from a re-analysis of the deposited data

Results flagged for a closer look

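For the 18 named members (the 14 called in any comparison and members 137, 119, 64 and 38, which were named for their level) and the summed CPM of each 0.5 Mb stretch, the gap from the highest or lowest library to its nearest neighbour was divided by the range over the 6 libraries of its group. In 16 of 81 groups this share was above Dixon's 95% critical value, where chance gives about 4.05 at 1 in 20 for normally distributed values. The CPM were taken without logs, and 14 of the 18 members were named because they were called in these data. The 16 are therefore a description and not a test against chance. The 81 groups are not independent, since they draw on the same libraries. The 16 include groups of members 2 and 18, which passed the filter on low counts only through aged libraries.

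Rat 8 was the highest of the aged AL group in 10 of the 16. Its gap was 0.895 of the range for member 2, 0.918 for member 16, 0.748 for member 57, 0.720 for member 58, 0.834 for member 65, 0.794 for member 92 and 0.659 for member 97. For the summed CPM it was 0.901 from 2.5 to 3 Mb, 0.708 from 3.5 to 4 Mb and 0.679 from 4 to 4.5 Mb. Library 8828 was the highest aged CR library in 3, with a gap of 0.875 for member 2, 0.726 for member 57 and 0.680 for the summed CPM from 5 to 5.5 Mb. Among the young rats, rat 5 was highest for member 2 (0.644) and for member 117 (0.668), and rat 2 for member 18 (0.739).

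Member 8 differed between the diets in aged rats, with a log2 difference of 1.15, higher under CR. It was called in neither comparison with young rats, and without a young CR group the effect of age under CR was not measured.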

How the results depend on the processing

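No paired analysis was possible because the groups share no replicate numbers. Of 507 alternative values of the 19 called pairs of member and comparison, 462 kept the direction and the call, 45 lost the call and 0 turned direction, and 32 of 938 values of pairs not called became calls. DESeq2 gave member 2 no adjusted p under AL. Calls were lost for member 2 (log2 fold change 2.68 to 5.29 over its alternatives) without rat 1, 3, 4, 6 or 8, for member 8 (0.99 to 1.27) without a filter or without rat 1, 2, 6, 7, 10 to 15 or library 8826, and for member 16 (0.50 to 0.95) without a filter, with edgeR on the compared groups, without both libraries or without any 1 of rats 1 to 6, 8, 9 and 12. They were lost for member 65 (1.5 to 2.46) without rat 1, 3, 4, 5, 6, 8 or 9 or library 8826, and for member 97 under CR (1.31 to 1.59) without rat 1, 3, 5, 6, 13 or 15 or library 8826 or 8828.

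Counts moved by more than 1.5 times as follows, and the cause was not tested. Against young rats, members higher under AL (11) became 17 with DESeq2 on all libraries (12.1% of members, against 3.03% of all genes) and 6 at an adjusted p of 0.01 (4.23%, against 0.403%). Members lower (2 under AL, 2 under CR) became 4 and 4 with DESeq2 on all libraries (2.86% each, against 2.78% and 2.48%) and on the compared groups (2.88% and 2.90%, against 2.50% and 3.06%), and those under AL 4 without rat 8 and library 8828 (2.84%, against 2.23%). Members higher under CR (3) became 5 with RLE scaling or robust shrinkage (3.52%, against 0.806% and 0.792%), 6 with upper-quartile scaling (4.23%, against 1.13%), 12 and 15 with DESeq2 on all libraries and the compared groups (8.57% and 10.9%, against 1.68% and 2.63%), 13 with edgeR on the compared groups (9.42%, against 1.51%) and 11 without both libraries (7.80%, against 1.48%). Between the aged groups, members higher under CR (1) became 0 without a filter or at 0.01 (against 0.251% and 0.184%), 3 and 2 with DESeq2 (2.14% and 1.44%, against 1.61% and 1.51%), and 4 without both libraries (2.84%, against 1.79%), and members lower (0) became 5 without both libraries (3.55%, against 1.47%).

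Leaving out 1 library at a time gave 8 to 15 higher (against 1.06% to 2.75% of all genes) and 2 to 3 lower members (0.828% to 2.36%) under AL, and 2 to 14 higher (0.427% to 2.05%; 14 without rat 8, 6 without rat 2, 5 without rat 7) and 2 to 3 lower (0.794% to 1.87%) under CR. The higher counts against young rats in this section can include members 2, 17 and 18, which passed the filter only through aged libraries. Between the aged groups it gave 0 to 3 higher (3 without rat 8, 2 without library 8828, 0 without rat 2, 6, 7, 10, 11, 12, 13, 14, 15 or library 8826; 0.262% to 1.43% of all genes) and 0 to 6 lower (6 without library 8828; 0.202% to 1.18%). Depth limits members 2, 18, 55 and 59, among others, which had under 10 counts in several libraries. A minimum of 10 counts in every library left 117 members to test.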
